A study of Mus musculus with 10 samples.

Results

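The 10 genes described here encode lung enzymes that handle xenobiotics, which are foreign compounds such as drugs, pollutants and plant products. They were chosen by name, not by a measured value, as cytochrome P450, flavin monooxygenase, aldehyde dehydrogenase and glutathione transferase genes known in lung, together with the electron donor of the P450 enzymes. Earlier results of these data were known when the choice was made. All 10 symbols were found among the 24059 gene symbols of the count table. RNA of whole lung, flushed with PBS, was sequenced from 10 female C57Bl/6 mice, each of them 1 sample, to ask how a diet rich in n-3 fatty acids alters lung gene expression. From 6 weeks of age until 14 weeks, 5 mice received the fish oil diet (FO) and 5 the coconut oil diet (CO), both with 19% fat by weight and added cholesterol. The study's supplement lists less cholesterol for the FO than for the CO diet. In the FO diet, 91% of the fat was menhaden fish oil and 9% corn oil. The fat of the CO diet was 78% saturated (coconut oil), 13% monounsaturated (supplied by olive oil) and 9% polyunsaturated (corn oil again) by the GEO record, while the study's methods give slightly other shares for these oils. Mice of both diets had their airway reactivity measured before the lungs were taken, under pentobarbital and with methacholine.

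Foreign compounds are typically first oxidised and then conjugated. P450 enzymes insert oxygen with electrons that POR passes on from NADPH, flavin monooxygenases oxidise nitrogen and sulphur atoms, aldehyde dehydrogenases turn reactive aldehydes into acids, and glutathione transferases attach glutathione to reactive products. In mouse lung much of the P450 activity is known from club cells of the airway, and CYP2F2 is a marker of them, while Cyp1a1 is the classical target of the aryl hydrocarbon receptor and Cyp2b10 that of the receptor NR1I3, through which barbiturates act in liver.

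The depth of the libraries set what could be seen. The table held 229766 to 1124963 counts per mouse, and Rn45s, the precursor of ribosomal RNA, took as little as 21.8% of them in CO mouse 4 and up to 87.0% in FO mouse 3. The counts outside Rn45s were fewest in CO mouse 1 (45177) and most in FO mouse 2 (473254). Levels are given as CPM, that is counts scaled to a common library size with edgeR's TMM factors, which make the bulk of the genes comparable between mice. A count of 3, taken as the floor of a library, stood for 2.29 CPM in FO mouse 2 and for 19.9 CPM in CO mouse 1, and such floors cover counting error only. Libraries that stood apart were CO mouse 4, with the largest scaling factor (3.21), and FO mouse 2 and CO mouse 5, in which the nuclear RNA Malat1 made up 8.53% and 6.15% of the counts outside Rn45s, against at most 1.05% in the other 8.

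The 10 genes together received from 121 counts in FO mouse 3 to 1118 in FO mouse 2. Relative to all counts outside Rn45s this was a narrow range, from 0.196% in CO mouse 5 to 0.329% in CO mouse 2. The mean share was 0.269% ± 0.0404 for FO and 0.261% ± 0.0568 for CO mice (SD, n = 5 per diet). Fmo2 and Aldh1a1 alone made up 70.0% to 83.9% of the counts on the 10 genes in each mouse. The genes were thus very unequal in depth, from 3 counts over all mice for Cyp1a1 to 1896 for Fmo2.

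To compare levels between genes, CPM was divided by the merged length of all exons of each gene. Aldh1a1 stood highest with a mean level of 62.7 ± 15.4 CPM per kilobase (SD over the 10 mice), followed by Fmo2 with 53.1 ± 16.0. These levels did not differ beyond their spread, as Aldh1a1 exceeded Fmo2 in 6 of 10 mice. Gstm1 came next with 30.0 ± 10.2 CPM per kilobase and was below Fmo2 in 8 of 10 mice. Cyp4b1 followed with 17.2 ± 5.55 CPM per kilobase and was below Gstm1 in 8 of 10 mice. Por, Fmo1 and Gsto1 formed a close group below it. Their mean levels were 9.46 ± 4.23, 8.71 ± 2.96 and 8.46 ± 3.95 CPM per kilobase. Within this group the order was not stable, since Por exceeded Fmo1 in 7 of 10 mice and Fmo1 exceeded Gsto1 in 6 of 10, whereas Cyp4b1 exceeded Por in 9 of 10. Cyp2b10 had a mean level of 2.42 ± 1.88 CPM per kilobase and was below Gsto1 in all 10 mice. Gstp1 and Cyp1a1 closed the order with 0.914 ± 1.44 and 0.173 ± 0.366 CPM per kilobase, levels that rest on counts at or under the floor in every mouse.

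The order depends in part on the length used. With the longest coding transcript in place of all exons, an alternative chosen after seeing the data, Aldh1a1 had 131 ± 32.1 CPM per kilobase and exceeded Fmo2, with 73.3 ± 22.0, in 9 of 10 mice. Relative to its level over all exons Fmo1 moved most, to 2.64 times that level, or 23.0 ± 7.81 CPM per kilobase. It exceeded Cyp4b1, with 20.5 ± 6.62, in 7 of 10 mice. Gsto1 and Por followed with 14.5 ± 6.77 and 14.4 ± 6.45 CPM per kilobase. Aldh1a1, Fmo2 and Gstm1 stayed the highest 3 and Cyp2b10, Gstp1 and Cyp1a1 the lowest 3. Which transcripts of these genes the lungs made was not tested.

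**Figure D1:**
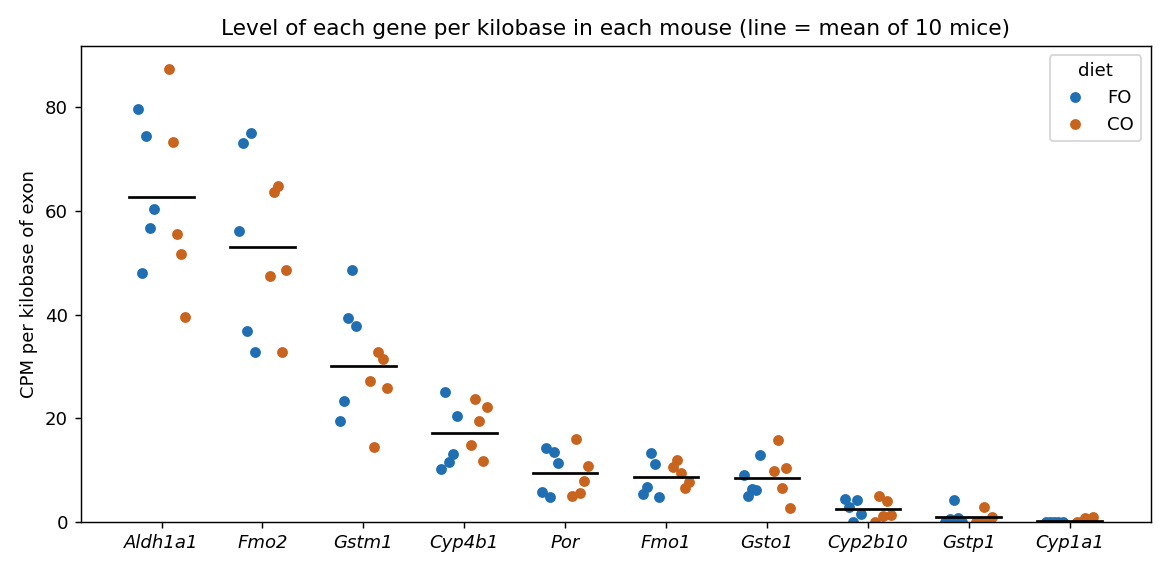
Level of the 10 genes in CPM per kilobase of exon, with each of the 5 FO and 5 CO mice as a point and the mean of the 10 mice as a line. Aldh1a1 and Fmo2 overlap at the top, and FO and CO points are mixed for every gene that has counts above the floor.

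The comparison of the diets asked whether any of these genes differed between the FO and CO groups. The test was the quasi-likelihood test of edgeR, fitted across all genes that passed edgeR's default filter on low counts, and called at an unadjusted p under 0.05, the threshold given in the study's methods. Of the 10 genes, 6 passed the filter (Cyp4b1, Por, Fmo1, Fmo2, Aldh1a1 and Gstm1) and 4 did not (Cyp2b10, Cyp1a1, Gsto1 and Gstp1). None of the 6 was called, where 71 of all 2438 genes tested (2.91%) were called, 41 higher and 30 lower in the FO group. With so low a share over all genes, a count of 0 among 6 is near the background and says little about these genes in particular. The balance of the calls over all genes was not stable with 1 mouse left out. Without FO mouse 2 it turned to 52 higher and 102 lower in the FO group. It also turned without FO mouse 4 (25 and 37), CO mouse 1 (46 and 58) or CO mouse 2 (38 and 39). Without FO mouse 3 or CO mouse 3 it was even (40 and 40), and without any other mouse it kept its direction. After Benjamini-Hochberg adjustment over all 2438 genes, edgeR called 0 genes (0%), and 0 of the 6. DESeq2 called 62 genes at an unadjusted p under 0.05 and 1 after adjustment, S100a9, which was named after its values were seen, and limma-voom called 117 and 0. Neither tool called any of the 6 genes. The FO and CO mice overlapped for each of the 10 genes, and groups that did not overlap were found for 10 of the 2438 genes tested (0.410%). In whole-lung RNA, fewer cells of a type and less RNA per cell cannot be told apart, which holds for all levels below.

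Of the 3 P450 genes among the 10, Cyp4b1 had the most counts. It encodes an enzyme that oxidises fatty acids and activates several lung toxins, and it lies at chr4:115624725-115647723 on the minus strand of GRCm38, the build that mm10 names. Its level was 23.0, 56.6, 25.8, 29.6 and 45.8 CPM in FO mice 1 to 5, and 33.2, 53.3, 43.8, 26.2 and 49.9 CPM in CO mice 1 to 5. FO mouse 2 was the highest and FO mouse 1 the lowest, so that the FO mice enclosed all CO mice. The FO mean was 36.2 ± 14.4 CPM and the CO mean 41.3 ± 11.3 (SD, n = 5 per diet). edgeR estimated a log2 fold change, FO minus CO, of -0.13 with a standard error of 0.33 (adjusted p = 0.998), and 2 of 5 FO mice lay above the CO median. The difference of the means of log2 CPM was -0.21 (two-sided exact permutation test, taking each possible way to assign the diets to the mice, p = 0.468).

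Por encodes the reductase that supplies electrons to the microsomal P450 enzymes and lies at chr5:135670033-135735326 on the plus strand. Its level was 23.0, 57.3, 19.4, 54.4 and 45.8 CPM in FO mice 1 to 5, and 19.9, 63.9, 21.9, 31.5 and 43.3 CPM in CO mice 1 to 5. High and low mice occurred under both diets, with CO mouse 2 highest and FO mouse 3 lowest, and the groups overlapped over nearly their whole range. FO mouse 3 and CO mouse 1 had 3 counts each, at the floor. The FO mean was 40.0 ± 17.7 CPM and the CO mean 36.1 ± 18.1 (SD, n = 5 per diet). edgeR estimated a log2 fold change of 0.25 with a standard error of 0.36 (adjusted p = 0.998), with 3 of 5 FO mice above the CO median, and it turned to -0.26 with library size alone as the scaling. The exact permutation test gave p = 0.77 for a difference of 0.14 in mean log2 CPM.

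As a description over the 10 mice, log2 CPM of Por and Cyp4b1 had a Pearson correlation of 0.63, the highest among the 15 pairs of the 6 genes. The lowest was -0.47, between Por and Aldh1a1. Per kilobase, Por stood at 0.281 to 1.03 times the level of Cyp4b1, with a median of 0.561, and only FO mouse 4 had more Por than Cyp4b1.

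Cyp2b10, an enzyme of the drug-inducible CYP2B group at chr7:25897620-25926624 on the plus strand, was near the limit of detection. It had 8, 8, 0, 7 and 1 counts in FO mice 1 to 5, and 0, 2, 1, 8 and 2 counts in CO mice 1 to 5. Counts above the floor were found in FO mice 1, 2 and 4 and in CO mouse 4, which are among the 5 libraries with the most counts outside Rn45s, and 1 mouse of each diet had no count. The corresponding levels were 9.21, 6.11, 0, 8.65 and 3.27 CPM in the FO mice, and 0, 10.7, 2.19, 8.40 and 2.62 CPM in the CO mice. The groups overlapped fully. In edgeR's fit of the 14161 genes with any count, its log2 fold change was 0.42 (standard error 0.69, adjusted p = 0.992), and -0.21 with library size alone. With 1 mouse left out it ran from 0.22 without CO mouse 5 to 1.03 without CO mouse 4. The exact permutation p was 0.77.

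Cyp1a1, which metabolises polycyclic aromatic hydrocarbons, lies at chr9:57687928-57703824 on the plus strand and was all but undetected. It had 0 counts in each FO mouse, and 0, 0, 1, 0 and 2 counts in CO mice 1 to 5. The 3 counts of CO mice 3 and 5 are at or under the floor, as are the FO mice, so no fold is given. In edgeR's fit of genes with any count, which called 587 of 14161 genes (4.15%), 365 higher and 222 lower, Cyp1a1 was the only 1 of the 10 genes called. After adjustment that fit called 1 gene (edgeR adjusted p = 2.0e-05), which is not among the 10. The edgeR adjusted p of Cyp1a1 was 0.905, and its exact permutation p was 0.444. DESeq2 on the same genes gave it an adjusted p of 0.9999. The fit no longer called it without CO mouse 3, without CO mouse 5 or without FO mouse 2, nor with the replicate number as a block, and limma-voom did not call it.

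The flavin monooxygenase genes Fmo1 and Fmo2 are neighbours on the minus strand of chromosome 1, at chr1:162829561-162866610 and chr1:162874317-162898726, with 7706 bases between them. FMO2 is the member of the family known as the lung form, and FMO1 is a broad-range enzyme. Fmo2 had a level of 315, 410.4, 206, 421 and 183 CPM in FO mice 1 to 5, and of 266, 357, 364, 184 and 273 CPM in CO mice 1 to 5. FO mice 2 and 4 lay above all CO mice, while FO mouse 5 was the lowest, just under CO mouse 4. The FO mean was 307 ± 111 CPM and the CO mean 289 ± 74.3 (SD, n = 5 per diet). edgeR estimated a log2 fold change of 0.12 with a standard error of 0.27 (adjusted p = 0.998), with 3 of 5 FO mice above the CO median, and it turned to -0.23 with library size alone. The exact permutation p was 0.865 for a difference of 0.05 in mean log2 CPM.

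Fmo1 showed another order of mice than its neighbour. Its level was 33.4, 42.0, 83.9, 70.4 and 29.5 CPM in FO mice 1 to 5, and 66.5, 74.6, 59.1, 40.9 and 48.6 CPM in CO mice 1 to 5. FO mouse 3, among the lowest for Fmo2, was the highest for Fmo1, and the CO mice all lay within the FO range. The FO mean was 51.8 ± 24.03 CPM and the CO mean 57.9 ± 13.5 (SD, n = 5 per diet). edgeR estimated a log2 fold change of -0.16 with a standard error of 0.32 (adjusted p = 0.998), with 2 of 5 FO mice above the CO median. The difference in mean log2 CPM was -0.23 (exact permutation test, p = 0.468). Per kilobase of all exons, Fmo2 exceeded Fmo1 in all 10 mice, by 1.47 on the log2 scale in FO mouse 3 up to 3.46 in FO mouse 2. With the longest coding transcript it also did in all 10, by 0.532 to 2.52. The mean of the difference over all exons was 2.78 ± 0.80 for FO and 2.48 ± 0.25 for CO mice.

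Aldh1a1, at chr19:20492715-20643465 on the plus strand, encodes a cytosolic enzyme that oxidises retinal to retinoic acid and also clears aldehydes from lipid peroxidation. Its level was 394, 237, 368, 280.4 and 298 CPM in FO mice 1 to 5, and 432, 362, 274, 255.1 and 196 CPM in CO mice 1 to 5. The CO mice held both the highest and the lowest value, in CO mice 1 and 5, and the FO mice lay between them. With a coefficient of variation of 24.5% over the 10 mice it was the least variable of the 10 genes. The FO mean was 315 ± 64.3 CPM and the CO mean 304 ± 93.3 (SD, n = 5 per diet). edgeR estimated a log2 fold change of 0.07 with a standard error of 0.24 (adjusted p = 0.998), with 4 of 5 FO mice above the CO median, and it turned to -0.38 with library size alone. The exact permutation p was 0.722 for a difference of 0.08 in mean log2 CPM.

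The ratio of the 2 most abundant of the 10 genes varied between mice. Per kilobase of all exons, the log2 ratio of Fmo2 to Aldh1a1 was -0.50, 0.61, -1.02, 0.40 and -0.88 in FO mice 1 to 5, and -0.88, -0.21, 0.23, -0.66 and 0.30 in CO mice 1 to 5. Fmo2 was ahead in 4 mice, 2 of each diet, and in 1 mouse with the longest coding transcript. The mean log2 ratio was -0.28 ± 0.74 for FO and -0.25 ± 0.52 for CO mice.

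Of the 6 genes of the list that passed the filter, Aldh1a1 had the highest mean CPM, and the genes whose log2 CPM ran most like it over the 10 mice were sought among the 2438 tested. Among those found were Mtch1 (Pearson r = 0.92), Irf8 (0.88), Clec3b (0.88) and Cx3cr1 (0.86), each over 10 mice. These are chosen as high values out of many correlations among libraries that share differences in depth, and they are given as a description.

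Gstm1 had the most counts of the 3 glutathione transferase genes among the 10. It encodes a mu-class enzyme and lies at chr3:108012255-108017973 on the minus strand. Its level was 28.8, 34.4, 58.1, 71.6 and 55.7 CPM in FO mice 1 to 5, and 39.9, 21.3, 48.2, 46.2 and 38.1 CPM in CO mice 1 to 5. FO mice 3, 4 and 5 lay above all CO mice, but FO mice 1 and 2 lay below 4 of them. Group means were 49.7 ± 17.7 CPM for FO and 38.7 ± 10.6 for CO mice (SD, n = 5 per diet). edgeR estimated a log2 fold change of 0.25 with a standard error of 0.32 (adjusted p = 0.998), and it turned to -0.43 with library size alone. The difference in mean log2 CPM was 0.31, and with p = 0.341 the exact permutation test gave the smallest value among the 6 genes that passed the filter.

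Gsto1, at chr19:47854970-47864790 on the plus strand, encodes an omega-class enzyme that reduces dehydroascorbate. Its level was 18.4, 9.93, 12.9, 12.4 and 26.2 CPM in FO mice 1 to 5, and 19.9, 31.96, 13.1, 20.995 and 5.25 CPM in CO mice 1 to 5. All FO mice lay inside the CO range, whose ends were CO mice 2 and 5. Group means were 16.0 ± 6.51 CPM for FO and 18.3 ± 9.92 for CO mice (SD, n = 5 per diet). In the fit of genes with any count edgeR put its log2 fold change at -0.06 with a standard error of 0.47 (adjusted p = 0.995), and the exact permutation p was 0.849.

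**Figure D2:**
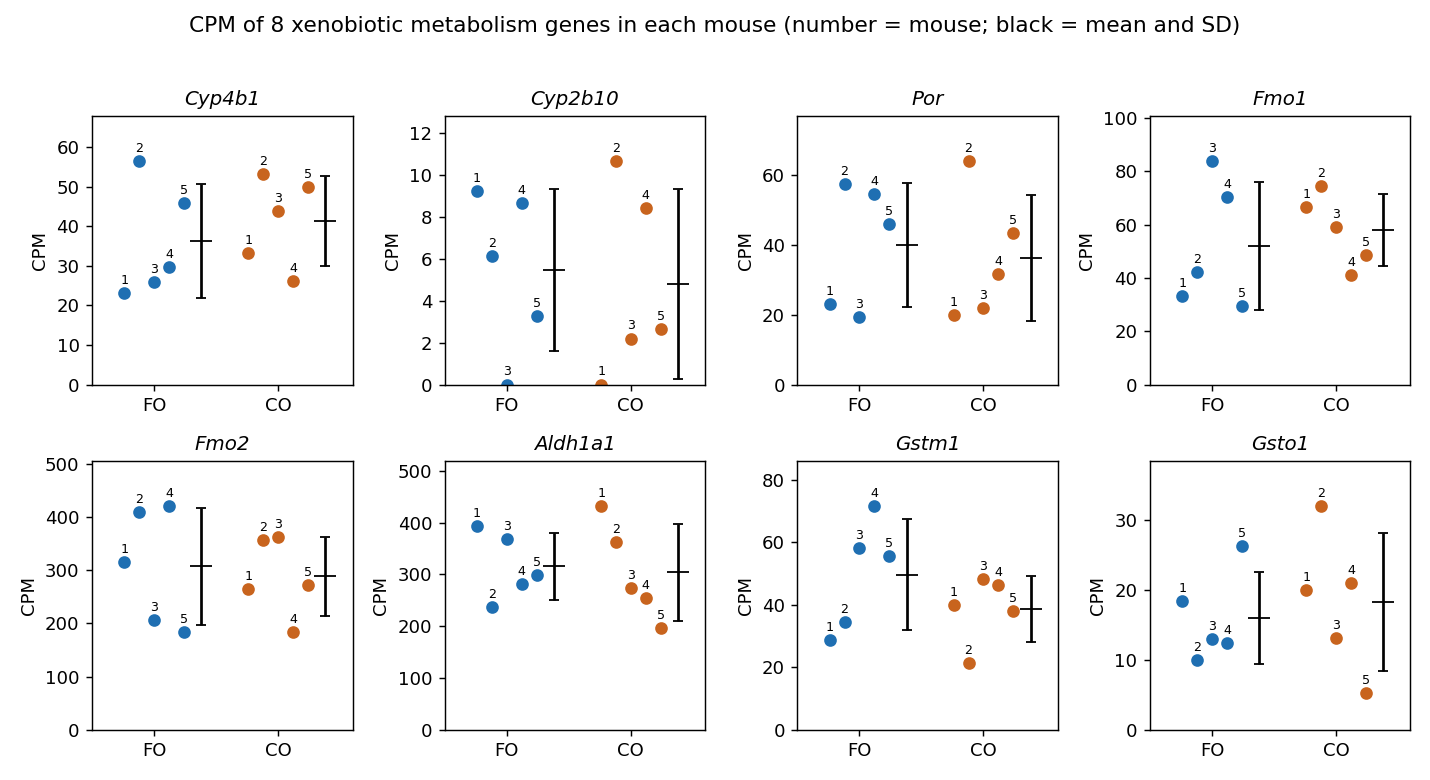
CPM of the 8 genes with more than 3 counts in any mouse, with FO and CO mice as numbered points and the mean and SD of each group in black. The groups overlap in every panel, and for Cyp4b1, Fmo1 and Fmo2 the FO mice reach both above and below all CO mice.

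Gstp1, the pi-class gene at chr19:4035407-4037985 on the minus strand, had 0, 1, 1, 1 and 0 counts in FO mice 1 to 5, and 0, 0, 2, 0 and 1 counts in CO mice 1 to 5. With 6 counts in all, every mouse was under the floor, and no fold is given. The level of Gstp1 is uncertain, because Gstp2 is a near-identical copy next to it. Of the windows of 50 bases in the Gstp1 transcript, 62.3% also occur in a transcript of Gstp2, and Gstp2 had 0 counts in all 10 mice. How reads matching both copies were counted is not given in the sources used here. The first 150 coding bases of both genes, 5′ to 3′ without introns, are shown because they hold 6 of the 12 differences between the coding sequences of 633 bases, which are 98.1% identical. Capitals mark the bases that differ, and the sequences are those of GENCODE M21 on GRCm38.
Gstp1: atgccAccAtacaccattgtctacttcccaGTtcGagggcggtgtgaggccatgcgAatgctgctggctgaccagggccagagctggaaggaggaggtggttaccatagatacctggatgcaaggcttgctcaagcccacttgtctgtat
Gstp2: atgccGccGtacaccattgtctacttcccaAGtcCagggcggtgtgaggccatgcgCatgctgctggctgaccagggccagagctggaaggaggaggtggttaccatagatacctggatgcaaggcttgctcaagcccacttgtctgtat
Past the last difference shown, the copies run on without a mismatch to the end of the stretch, so a read from there cannot be told apart.

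The other genes of the list shared less sequence. No window of 50 bases of the longest coding transcript of Por, Fmo1, Fmo2 and Gsto1 occurred in another gene. The share was 3.55% for Cyp1a1, 6.54% for Aldh1a1, 9.70% for Cyp2b10, 10.3% for Cyp4b1 and 23.1% for Gstm1. Aldh1a7, with which Aldh1a1 shares its windows, had 50 counts over the 10 mice, against 1677 for Aldh1a1. No exon of the 10 genes overlapped an exon of another gene in the annotation, on either strand.

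**Figure D3:**
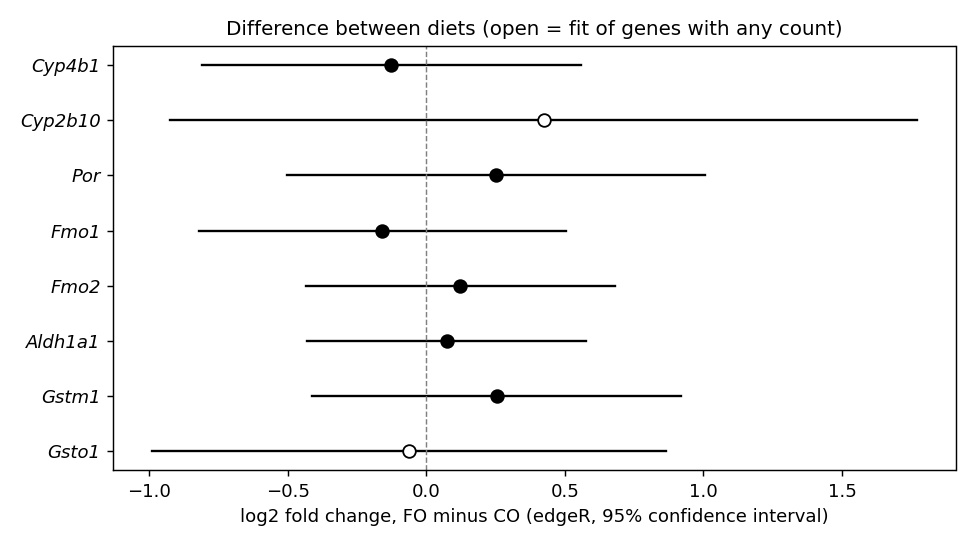
Log2 fold change, FO minus CO, with its 95% confidence interval, of the 8 genes with more than 3 counts in any mouse. Filled points come from the fit of genes that passed the filter and open points, Cyp2b10 and Gsto1, from the fit that included all genes with counts. Each interval includes 0.

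The 95% intervals show what these mice can bound. The narrowest was that of Aldh1a1, from 0.743-fold to 1.49-fold. The widest of the 6 genes that passed the filter was that of Por, from 0.706-fold to 2.01-fold. For Cyp2b10 it ran from 0.526-fold to 3.41-fold. Differences inside these intervals are not excluded. By sign, 4 of the 6 genes that passed the filter had a log2 fold change above 0 and 2 below, but with library size alone all 6 lay below 0. That scaling moved the median of all genes tested from 0.00 to -0.55, and relative to the median 5 of the 6 genes lay above and 1 below. The median of the 6 was 0.10 in the TMM scaling, beside 0.00 over all genes tested.

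Further genes of the same pathways were taken from 6 lists of 187 symbols in all, of which the table held 183, with counts for 123 of them, and 20 passed the filter. None of the 20 was called. Their log2 fold changes were above 0 for 9 and below 0 for 11 (with library size alone all 20 were below 0, but 11 above and 9 below the median of all genes), with a median of -0.04 beside 0.00 over all genes tested. In the fit of genes with any count, 5 of the 123 were called (4.07%), close to the 4.15% over all genes of that fit. They were Cyp2b9, Cyp4a12b and Gstm4, lower in the FO group, and Ces1f and Pparg, higher in it. These calls rest on few counts, with 3 for Cyp2b9, 4 each for Cyp4a12b and Ces1f and 13 for Gstm4 over the 10 mice. Of the 33 counts of Pparg, 19 came from FO mouse 2. Each of the 5 had an edgeR adjusted p of 0.905.

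Of 55 listed further P450 genes and electron donors, 29 had any count and 2 passed the filter. Cyp2f2, whose product activates naphthalene in club cells, had a mean level of 136 ± 27.6 CPM under the FO diet and 173 ± 67.3 CPM under the CO diet, with a range of 98.7 to 250.3 CPM over all mice. edgeR put its log2 fold change at -0.31 with a standard error of 0.27 (adjusted p = 0.998). Per kilobase it stood at 76.4 CPM, the highest of the P450 genes listed, and above the mean of each of the 10 genes, though below Aldh1a1 with the longest coding transcript (82.9 against 131 CPM). Cyb5b, a cytochrome b5 of the outer mitochondrial membrane, had 58.0 ± 11.03 CPM under the FO diet and 80.7 ± 26.3 CPM under the CO diet. edgeR put its log2 fold change at -0.44 with a standard error of 0.27 (adjusted p = 0.998). Cyp2a5 came next in CPM with 48 counts in all. Among the listed P450 genes with few or no counts were Cyp3a25, Cyp2c37 and Cyp4a12a at 0 counts and Cyp1a2 at 1 count.

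Of further flavin monooxygenase genes, Fmo5 had 63 counts over the 10 mice and Fmo4 had 1, while Fmo6 and Fmo9 had none, and none of these passed the filter.

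Of 35 listed further aldehyde, alcohol and carbonyl enzymes, 5 passed the filter, 3 with a log2 fold change above 0 and 2 below, with a median of 0.17. All 5 were below 0 with library size alone, and 3 of them above the median of all genes. Akr1a1, an aldehyde reductase, had 222 ± 58.5 CPM under the FO diet and 189 ± 54.6 CPM under the CO diet. Aldh2, the mitochondrial enzyme that oxidises acetaldehyde, had 168 ± 43.0 CPM and 143 ± 21.9 CPM. Cbr2, a carbonyl reductase abundant in lung, had 158 ± 45.2 CPM and 139 ± 43.4 CPM. The log2 fold changes were 0.22 for Akr1a1, 0.24 for Aldh2 and 0.17 for Cbr2 (standard errors 0.25, 0.23 and 0.29), each with an edgeR adjusted p of 0.998 and each below 0 with library size alone. Per kilobase of all exons, Cbr2 stood at 112 CPM, Akr1a1 at 74.7 and Aldh2 at 30.3, and with the longest coding transcript Akr1a1 (145) was above Cbr2 (134).

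Of 23 listed further glutathione transferases, 3 passed the filter, 2 with a log2 fold change above 0 and 1 below. With library size alone all 3 were below 0 and above the median of all genes. Gstm2, from the same mu class as Gstm1, had 54.7 ± 13.1 CPM under the FO diet and 61.8 ± 19.6 CPM under the CO diet. Gsta3, of the alpha class, had 38.1 ± 12.9 CPM and 30.1 ± 16.0 CPM. Mgst1, a membrane-bound transferase, had 28.9 ± 16.4 CPM and 25.6 ± 20.5 CPM. Their log2 fold changes were -0.07, 0.31 and 0.10 (standard errors 0.27, 0.36 and 0.50), each with an edgeR adjusted p of 0.998. Per kilobase of all exons, Gstm2 at 34.7 CPM was close to Gstm1, and it stood at 54.8 against 34.3 CPM with the longest coding transcript.

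Of 49 listed further conjugating, hydrolysing and quinone enzymes, 3 passed the filter, each with a log2 fold change below 0 (median -0.09), though with library size alone 2 of the 3 were above the median of all genes. Inmt, which methylates indole amines and is also a marker of lung fibroblasts, had 560.0 ± 207 CPM under the FO diet and 599.8 ± 276 CPM under the CO diet. At 362 CPM per kilobase it stood above all 10 genes. Ces1d, a carboxylesterase, had 55.9 ± 13.2 CPM and 57.7 ± 26.8 CPM, and Pon2, a lactonase, had 38.4 ± 19.1 CPM and 41.9 ± 12.3 CPM. The log2 fold changes were -0.09 for Inmt, -0.02 for Ces1d and -0.18 for Pon2 (standard errors 0.32, 0.34 and 0.33), each with an edgeR adjusted p of 0.998. Several glucuronosyltransferase genes had 0 counts, among them Ugt1a1, Ugt1a9 and Ugt2b5. Such zeros need not mean that a gene is not expressed, here or in the other lists, since Cyb5r3, Akr1b3, Aqp5 and the listed globin genes, which are expected in whole lung, were at 0 as well. Whether this comes from the annotation or from reads shared between genes was not tested.

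Of 20 listed sensors of foreign compounds and their partners, 7 passed the filter, 4 with a log2 fold change above 0 and 3 below. Scaled by library size alone, all 7 were below 0 and 3 above the median of all genes. Hsp90ab1, a chaperone that holds the aryl hydrocarbon receptor and nuclear receptors, had 1327 ± 337 CPM under the FO diet and 1313 ± 400.1 CPM under the CO diet. Nr3c1, the glucocorticoid receptor, had 114 ± 22.8 CPM and 145 ± 28.3 CPM, and Nfe2l2, the factor that drives many glutathione transferase genes, had 57.8 ± 21.2 CPM and 72.0 ± 12.4 CPM. Their log2 fold changes were 0.01, -0.34 and -0.20 (standard errors 0.26, 0.23 and 0.27), each with an edgeR adjusted p of 0.998. The receptor Ahr had 96 counts over the 10 mice and was found in each of them, and its partner Arnt had 123. In contrast, Ahrr and Nr1i2 had 1 count each and Nr1i3 had none. The inducible Cyp1a1 and Cyp2b10 were low in the same lungs at this depth, and whether their levels relate to these receptors was not tested.

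Many of these enzymes are made in particular lung cells, so markers of 11 cell types were read in the same libraries. The labelled tissue was borne out by lung markers, with Scgb1a1 of club cells at a mean of 1216 CPM and Sftpc of alveolar type 2 cells at 999.8 CPM. The 9 club cell markers with counts, led by Scgb1a1, summed to 2101, 1327, 1755, 1414 and 1791 CPM in FO mice 1 to 5, and to 2698, 2674, 2811, 1279 and 1053 CPM in CO mice 1 to 5. CO mice 4 and 5 thus lay below all FO mice and CO mice 1 to 3 above them. Of the 6 club cell markers tested, 1 had a log2 fold change above 0 and 5 below (median -0.33), none was called, and Lypd2 was at 0. With library size alone all 6 were below 0, 2 of them above the median of all genes, and 1 was called. The list holds Cyp2f2 and Cbr2, which are also in the pathway lists.

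Alveolar type 2 markers, led by Sftpc, summed to 1823, 3827, 2452, 2247 and 2377 CPM in FO mice 1 to 5, and to 1548, 1891, 2272, 1115 and 3122 CPM in CO mice 1 to 5. FO mouse 2 and CO mouse 5, the libraries with a high Malat1 share, were the highest of their groups. All 8 type 2 markers tested had a log2 fold change above 0 (median 0.31), and none was called. With library size alone 2 of 8 were above 0, but all 8 were above the median of all genes, as in the TMM scaling 7 of 8 were. With RLE size factors, and likewise without Rn45s, 7 of 8 were above 0. Type 1 markers, led by Emp2, summed to 1270.4, 1160.1, 961, 1092 and 1136 CPM in FO mice 1 to 5, and to 1030.0, 985, 900.3, 2469 and 1621 CPM in CO mice 1 to 5. CO mouse 4 stood far above the rest. Of the 8 type 1 markers tested, 1 had a log2 fold change above 0 and 7 below (median -0.28), 1 of them called, and Aqp5 was at 0. All 8 were below 0 with library size alone, and 7 of them below the median of all genes.

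The remaining cell type lists are given by their summed levels. Ciliated cell markers, led by Sec14l3, summed to 584 ± 87.8 CPM under the FO diet and 758 ± 251 CPM under the CO diet, with 2 tested, both below 0 (1 of them called with library size alone and none with TMM), and Dnah5 at 0. CO mice 4 and 5 had 1135 and 898 CPM, while CO mice 1 to 3 had 598, 559 and 598 CPM, within the FO range, and without CO mouse 4 the fit of genes with any count called 1 of 8 ciliated markers, higher in the FO group. Endothelial markers, led by Egfl7, summed to 549.8 ± 124 CPM and 584 ± 69.7 CPM, with 2 of 6 above 0. Fibroblast markers, led by Inmt, summed to 931 ± 195 CPM and 969.6 ± 316 CPM, with 4 of 7 above 0. With library size alone, none of these endothelial and fibroblast markers was above 0, and 3 of 6 and 6 of 7 were above the median of all genes. Macrophage markers, led by Lpl, summed to 321 ± 92.1 CPM and 209 ± 92.9 CPM, with 2 of 2 above 0. Red blood cell markers, led by Alas2, summed to 88.8 ± 13.2 CPM and 63.9 ± 49.5 CPM, with the globin genes of the list at 0. Here CO mice 4 and 5 had 18.9 and 15.7 CPM, below all FO mice, and CO mice 1 to 3 had 79.7, 69.2 and 135.8 CPM. Cardiac muscle markers, led by Myh6, summed to 165 ± 116 CPM and 91.0 ± 66.8 CPM. Adipocyte markers, led by Cfd, summed to 66.0 ± 36.0 CPM and 33.5 ± 9.28 CPM, with Lep at 0. Hepatocyte markers, led by Alb, summed to 11.01 ± 7.77 CPM and 12.9 ± 15.4 CPM, near 0, with Tat at 0. Summed marker levels overlapped between the diets for each of the 11 lists, and their part in the levels of the 10 genes was not tested.

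In the fit of genes with any count, 11 of the 97 cell type markers with counts were called (11.3%, beside 4.15% over all genes of that fit), of which 7 had a higher level in FO mice and 4 a lower one. Their smallest edgeR adjusted p was 0.401. The markers named here were named after their values were seen. Of the 10 cardiac muscle markers, Tnnt2, Tnni3, Myl3 and Ttn were higher in the FO group, and 2 of the 10 were called without FO mouse 2, 2 with DESeq2, 2 with limma-voom and 1 with library size alone. Lpl and Cd68 of macrophages and Alas2 of red blood cells were also higher, while Scgb3a1 of club cells, Akap5 of type 1 cells and Serpina1a and Serpina1b of hepatocytes were lower. Serpina1a and Serpina1b had 3 counts each over the 10 mice. Of these 7, DESeq2 called Akap5 alone. The main edgeR test, limited to genes that passed the filter, likewise called only Akap5 among the cell type markers. That was 1 of 8 type 1 markers tested, with none called in the other lists, beside 2.91% over all genes tested. The share of 11.3% thus belongs to the fit of genes with any count and not to the main test. The main test called no macrophage, red blood cell or club cell marker (smallest unadjusted p 0.069, 0.122 and 0.087), the 0.122 being that of Alas2. Myh6 was the only cardiac muscle marker it tested, without a call, and it tested no hepatocyte marker. With all genes that had counts in the fit, Tnni3, Myl3 and Lpl were called with any 1 mouse left out. Akap5 was not called without CO mouse 4, where instead 2 of 9 type 1 markers were called higher in the FO group and 0 lower. Other calls were lost too, that of Alas2 without CO mouse 4 or 5, that of Ttn without FO mouse 2, and that of Tnnt2 without FO mouse 2 or CO mouse 4. Scgb3a1 lost the call without FO mouse 1, 2 or 3 or CO mouse 1 or 3, and Cd68 without FO mouse 1 or 5 or CO mouse 1 or 5. Serpina1a lost it without FO mouse 1, 2 or 4 or CO mouse 4, and Serpina1b without FO mouse 1 or 2 or CO mouse 2 or 4. The replicate number as a block ended the calls of Ttn, Scgb3a1, Cd68, Serpina1a and Serpina1b. Library size alone ended those of Lpl, Cd68, Alas2, Scgb3a1, Tnni3, Tnnt2 and Ttn, and limma-voom those of Akap5, Serpina1a, Serpina1b, Tnnt2 and Ttn. Among type 2 markers, of which none was called in this fit, 3 of 10 were called without CO mouse 5, all higher in the FO group.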

How the data were processed

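Per the labels and the study's methods, reads were aligned to mm10 with STAR 2.4.0f1, handled with SAMtools 0.1.19 and counted per gene with HTSeq. The authors deposited raw counts per gene symbol, without normalization. The annotation and strand setting are not given in the sources used here, nor which mouse had which library kit (TruSeq RNA v2 or riboZero) or sequencer. All 10 columns were used.

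The fits used R 4.3.3 and edgeR 4.0.16 (TMM, minimum count 10, minimum total 15, quasi-likelihood test), with no covariate. Genes failing the filter were read from the fit of the 14161 genes with any count. That fit also gave calls of cell type markers that passed the filter, among them Akap5 and Alas2. Log2 CPM used a prior count of 2. Alternatives were DESeq2 1.42.0, limma-voom 3.58.1 with quality weights, other scalings and filters, no Rn45s, robust estimation, the replicate block and mice left out. The tests were checked on simulated counts in which all genes had the same dispersion, so that check does not cover differences in spread between genes. Exon lengths and sequences are those of GENCODE M21. The members and lists were chosen with earlier results of these data known. Further genes named are those of each pathway list called (at most 4) or among its 3 highest in CPM, the 5 most like Aldh1a1, the leading gene and markers at 0 of each cell type list, and close copies. Listed genes at or near 0, other sensors and S100a9 were named after their values were seen. Results for 2 genes chosen by the rules of the design are not reported here.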

Additional observations from a re-analysis of the deposited data

Results flagged for a closer look

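In groups of 5 mice, a mouse was looked at again where its gap to the nearest other mouse exceeded 0.71 of the group's range (Dixon's 95% limit for 5 samples). Of 76 groups looked at, 5 had such a mouse, where chance flags about 1 in 20 groups. FO mouse 2 had a Malat1 share of 8.53% of the counts outside Rn45s, with the next FO mouse at 0.928%. CO mouse 5 had a Malat1 share of 6.15%, with the next CO mouse at 1.05%. FO mouse 2 also had a summed level of cardiac muscle markers of 367 CPM, with the next FO mouse at 143 CPM. CO mouse 5 was far below the other CO mice for Cbr2, at 64.3 CPM with the next at 139.6 CPM. FO mouse 3, a shallow library, was far above the other FO mice for Pon2, at 71.0 CPM with the next at 36.0 CPM. None of the 10 xenobiotic metabolism genes had such a mouse among the 8 with more than 3 counts in any mouse.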

How the results depend on the processing

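None of the 6 genes that passed the filter was called in an alternative that tested it (the filter of 10 counts in each mouse kept 2 of them, Fmo2 and Aldh1a1), and 1 gene of the list, Cyp1a1, was called among genes with any count. The number of all genes called, 71, was 587 among genes with any count, 15 under a filter of 10 counts in each mouse, 36 with library size alone (1 higher and 35 lower) and 117 with limma-voom. It was 54 to 154 with 1 mouse left out, the highest without FO mouse 2, and 72 without both FO mouse 2 and CO mouse 5. With the replicate number as a block it was 55, and none of the 6 genes was called. The main test did not take same-numbered mice, which are different animals, as pairs. Deviations of same-numbered mice had a mean correlation of -0.12 (-0.41 to 0.03 over 5 pairs). Whether same-numbered mice shared a batch was not tested.

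With library size alone, which moved the median of all genes to -0.55, log2 fold changes turned to -0.21 for Cyp2b10, -0.26 for Por, -0.23 for Fmo2, -0.38 for Aldh1a1, -0.43 for Gstm1, -0.35 for Aldh2, -0.55 for Akr1a1, -0.47 for Cbr2, -0.12 for Gsta3, -0.26 for Mgst1 and -0.57 for Hsp90ab1. With limma-voom they turned to -0.015 for Fmo2, 0.087 for Gsto1, 0.0307 for Gstm2 and 0.000165 for Ces1d. Without FO mouse 2 and CO mouse 5, Fmo2 had -0.00132. Ces1d had 0.0135 among genes with any count and 0.0619 with the block, and Hsp90ab1 had -0.0325 under the filter of 10 counts in each mouse. The cause was not tested. With 1 mouse left out, the ranges that crossed 0 were -0.42 to 0.023 for Cyp4b1, -0.0464 to 0.26 for Fmo2, -0.0525 to 0.21 for Aldh1a1, -0.0085 to 0.43 for Gstm1, -0.35 to 0.19 for Gsto1, -0.038 to 0.34 for Cbr2, -0.145 to 0.05997 for Gstm2, -0.10 to 0.45 for Mgst1 (which passed the filter in 5 of 10 such fits), -0.26 to 0.11 for Inmt, -0.28 to 0.23 for Ces1d and -0.11 to 0.18 for Hsp90ab1. Cyb5b passed an unadjusted p under 0.05 without CO mouse 5 (log2 fold change -0.60). Of the genes whose log2 fold change the text prints, the other values kept their sign and their side of the threshold, as did the differences in log2 CPM.

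The length of the longest coding transcript, chosen after seeing the data, moved the levels of Aldh1a1, Fmo1, Fmo2, Por and Gsto1 by more than 1 SD between mice, and those of the other 5 genes by less.

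Few counts limit these results. Tested genes with as few as 3 counts in a library carry wide intervals, and no fold can be given for Cyp1a1 and Gstp1. The library kit and sequencer of each mouse are not given in the sources used here, and whether they differ between the diets was not tested.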
